A study of Mus musculus with 22 samples.

Results

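The ATF4 branch of the integrated stress response was followed as 38 genes, chosen by name from a list of the pathway's factors and targets, in mouse duodenal organoids exposed to cold atmospheric plasma (CAP). All 38 were found among the 52636 genes measured. RNA-seq was available for 22 libraries, 4 from untreated organoids and 3 from each of 6 treated groups. The organoids are wild type epithelial cultures grown from adult outbred CD1 mice, 2 months old, and each line comes from 1 mouse. Lines 1 (CD1, passage 12), 2 (WT2, passage 14) and 4 (passage 4) gave 1 library in every group, whereas line 3 (1-20, passage 4) gave an untreated library only. Line 4 is labelled 2-20 in its untreated library and 2 in its treated ones, and these were taken to be the same line. The same 3 lines thus recur in all treated groups, and all comparisons with untreated organoids share 4 control libraries. CAP is a helium jet carrying reactive oxygen and nitrogen species. In direct CAP the jet was applied to the culture itself at day 1, and the treated medium was left for 30 min or 24 h. In indirect CAP, naive organoids received medium from another treated organoid culture, and in PAM (plasma-activated medium) they received medium treated without organoids. The labels give these 4 groups as 30 min or 24 h as well, while the study describes an exposure of 24 h to either medium beginning at day 1 or at day 2. The labels do not say how both descriptions match, so the groups carry the labels' times here, and the time in an indirect CAP or PAM group should not be read as a length of exposure. The study ended its cultures at day 3.

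The integrated stress response is set off by kinases that sense amino acid shortage, unfolded protein in the endoplasmic reticulum, lack of haem or double-stranded RNA, and that phosphorylate the translation factor eIF2alpha. General protein synthesis falls, while a few mRNAs are translated better, among them that of the transcription factor ATF4. ATF4 pairs with other basic leucine zipper proteins at C/EBP-ATF response elements and induces genes for amino acid synthesis and uptake, the mitochondrial one-carbon pathway, further transcription factors and the proteins that end the response. Since much of ATF4's control lies in translation, RNA-seq reads its targets more directly than the factor itself.

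The values, which the study calls CP20M, are read counts scaled to 20 M per library and are not divided by gene length. The libraries held an estimated 19.4 to 28.7 M reads on genes (median 22.5), so that a value near 10 stands for about as many reads. All 7 markers of intestinal epithelium reached a value of 10 in every library, whereas the summed value of 5 fibroblast markers was between 2 and 17, that of 3 endothelial markers between 2 and 28 and that of 4 immune markers between 29 and 118. The labels call the cells stem cells. The summed value of 4 stem cell markers (Lgr5, Olfm4, Smoc2, Ascl2) was 28399 to 33368 in untreated organoids. It was 17213 to 26825 after direct CAP 30 min, 4515 to 8518 after direct CAP 24 h, 4840 to 12267 with indirect CAP 30 min, 1951 to 2662 with indirect CAP 24 h, 770 to 1998 with PAM 30 min and 650 to 1925 with PAM 24 h. The summed value of 4 proliferation markers (Mki67, Top2a, Ccnb1, Cdk1) lay between 16149 and 21645 in untreated organoids, and between 14919 and 20325 and 10928 and 14665 after direct CAP 30 min and 24 h. It lay between 12095 and 16727 and 5889 and 7241 with indirect CAP 30 min and 24 h, and between 8241 and 13113 and 2535 and 5887 with PAM 30 min and 24 h. That of 4 Paneth cell markers was 21047 to 28206 in untreated organoids. It was 9505 to 23681 and 9115 to 17252 after direct CAP, 5655 to 15492 and 12706 to 21083 with indirect CAP, and 3461 to 14536 and 3660 to 15912 with PAM, at 30 min and 24 h each. No marker of these 3 lists passed the threshold after direct CAP 30 min. In the order of the 5 other groups 2, 2, 4, 4 and 4 stem cell markers, 0, 0, 4, 1 and 4 proliferation markers and 2, 2, 0, 3 and 0 Paneth cell markers fell. Of all genes, 0.917%, 0.477%, 5.71%, 5.4% and 10.5% fell past the threshold in that order. Other cell types changed as well. The summed value of 5 goblet cell markers was 74524 to 132485 in untreated organoids and 16066 to 44175 with PAM 24 h, where 1 fell. Of 7 enterocyte markers 2 fell and 1 rose with indirect CAP 24 h. The part of these cells in the ATF4 genes' values was not tested. In bulk RNA, fewer cells of a type and less RNA per cell cannot be told apart.

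The C/EBP-ATF response element was searched on both strands, as TGATGNAA, in RefSeq promoters of GRCm38.p6 that run from 250 bases before to 50 bases after an annotated start. Of the 38 genes, 32 had at least 1 promoter, 40 promoters in all. The element was found in 10 of the 40 (25.0%), those of Asns, Atf3, Chac1, Fgf21, Nupr1, Pck2, Pycr1, Slc1a4, Trib3 and Vldlr, and in 1304 of all 32851 promoters (3.97%). The cAMP response element TGACGTCA, which no stretch of 8 bases shares with TGATGNAA, was found in 1 of the 40 (2.5%), that of Ppp1r15a, and in 588 of all promoters (1.79%). A match describes letters in a window and shows no binding. Windows upstream of the start are shown for 6 genes whose responses are compared below, because Atf3, Chac1 and Ppp1r15a rose in several treated groups, Pycr1 in 1 group and Pck2 in none, and Fgf21 was listed at 0 in untreated organoids. Each is given on the strand of its gene, with the element in capitals, which reads TTNCATCA where it lies on the other strand.
Atf3, chr1:191183410-191183469, minus strand, element from position -110: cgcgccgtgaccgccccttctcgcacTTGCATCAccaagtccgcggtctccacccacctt
Chac1, chr2:119351023-119351082, plus strand, element from position -193: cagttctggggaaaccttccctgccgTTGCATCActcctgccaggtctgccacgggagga
Fgf21, chr7:45615596-45615655, minus strand, element from position -139: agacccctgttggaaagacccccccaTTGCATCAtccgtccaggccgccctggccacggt
Pycr1, chr11:120643818-120643877, minus strand, element from position -103: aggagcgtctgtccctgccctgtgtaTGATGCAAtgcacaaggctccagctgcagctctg
Pck2, chr14:55540137-55540196, plus strand, element from position -103: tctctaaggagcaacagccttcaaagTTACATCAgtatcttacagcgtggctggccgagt
Ppp1r15a, chr7:45526269-45526306, minus strand, cAMP response element from position -12: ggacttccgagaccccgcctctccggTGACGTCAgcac

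In 5 of the 6 treated groups between 12 and 21 of the 37 ATF4 genes that could be tested rose past the threshold, and none fell past it. Fgf21 was too low to pass the filter on low values, and Slc7a3 passed it only through treated libraries. Without Slc7a3 the counts were 11, 11, 20, 11 and 15 of 36 genes in the order direct CAP 24 h, indirect CAP 30 min and 24 h, and PAM 30 min and 24 h. With the organoid line as a block they were 10, 11, 19, 10 and 14. The threshold was an adjusted p under 0.01 (limma, Benjamini-Hochberg over all genes tested) together with a log2 fold change of 1 or more in size. After direct CAP 24 h 12 genes rose, and 2.17% of all genes tested were past the threshold in either direction (1.25% higher). With indirect CAP 30 min 12 genes rose (all genes: 1.31%, 0.831% higher), with indirect CAP 24 h 21 genes (11.9%, 6.20% higher), with PAM 30 min 12 genes (10.2%, 4.83% higher) and with PAM 24 h 16 genes (17.3%, 6.82% higher). After direct CAP 30 min no ATF4 gene passed the threshold in limma, and 1 of 17731 genes did (0.00564%). At an unadjusted p under 0.05, 10 of the 37 were higher there and 1 was lower, and 24.9% of all genes differed. The median log2 fold change of the 37 genes was 0.08 after direct CAP 30 min, 0.61 after direct CAP 24 h, 0.83 and 1.16 with indirect CAP 30 min and 24 h, and 0.32 and 0.80 with PAM 30 min and 24 h. Over all genes tested these medians were 0.02, -0.08, 0.00, -0.01, -0.13 and -0.12. Without Slc7a3 the medians of the ATF4 genes were 0.07, 0.58, 0.81, 1.14, 0.31 and 0.78. Quantile normalization moved the median of all genes with PAM 24 h to 0.00 and that of the ATF4 genes to 0.97.

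With the organoid line as a block, 0, 11, 12, 20, 11 and 15 of the 37 genes passed in the same order of groups, all of them higher, and 0.0%, 2.02%, 1.81%, 10.6%, 7.81% and 14.9% of all genes. All 3 libraries lay above each untreated library for 8 of the 37 genes after direct CAP 30 min (12.4% of all genes), for 23 after direct CAP 24 h (11.6%), for 28 and 33 with indirect CAP 30 min and 24 h (16.7% and 22.7%), and for 18 and 24 with PAM 30 min and 24 h (17.1% and 20.7%). Without Slc7a3 they did so for 7, 22, 27, 32, 17 and 23 of 36 genes. The counts past the threshold for direct CAP 24 h and indirect CAP 30 min fell when any 1 library was left out. Such fits hold fewer libraries, and the part of this in the falls was not tested. Libraries are named by group and line here and below. Without direct CAP 24 h line 1 the first fell from 12 to 3, and without untreated line 2 or of line 4 to 4 or 6. The second fell from 12 to 5 without untreated line 2 or indirect CAP 30 min line 1, and to 7 without untreated line 4 or indirect CAP 30 min line 2.

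**Figure D1:**
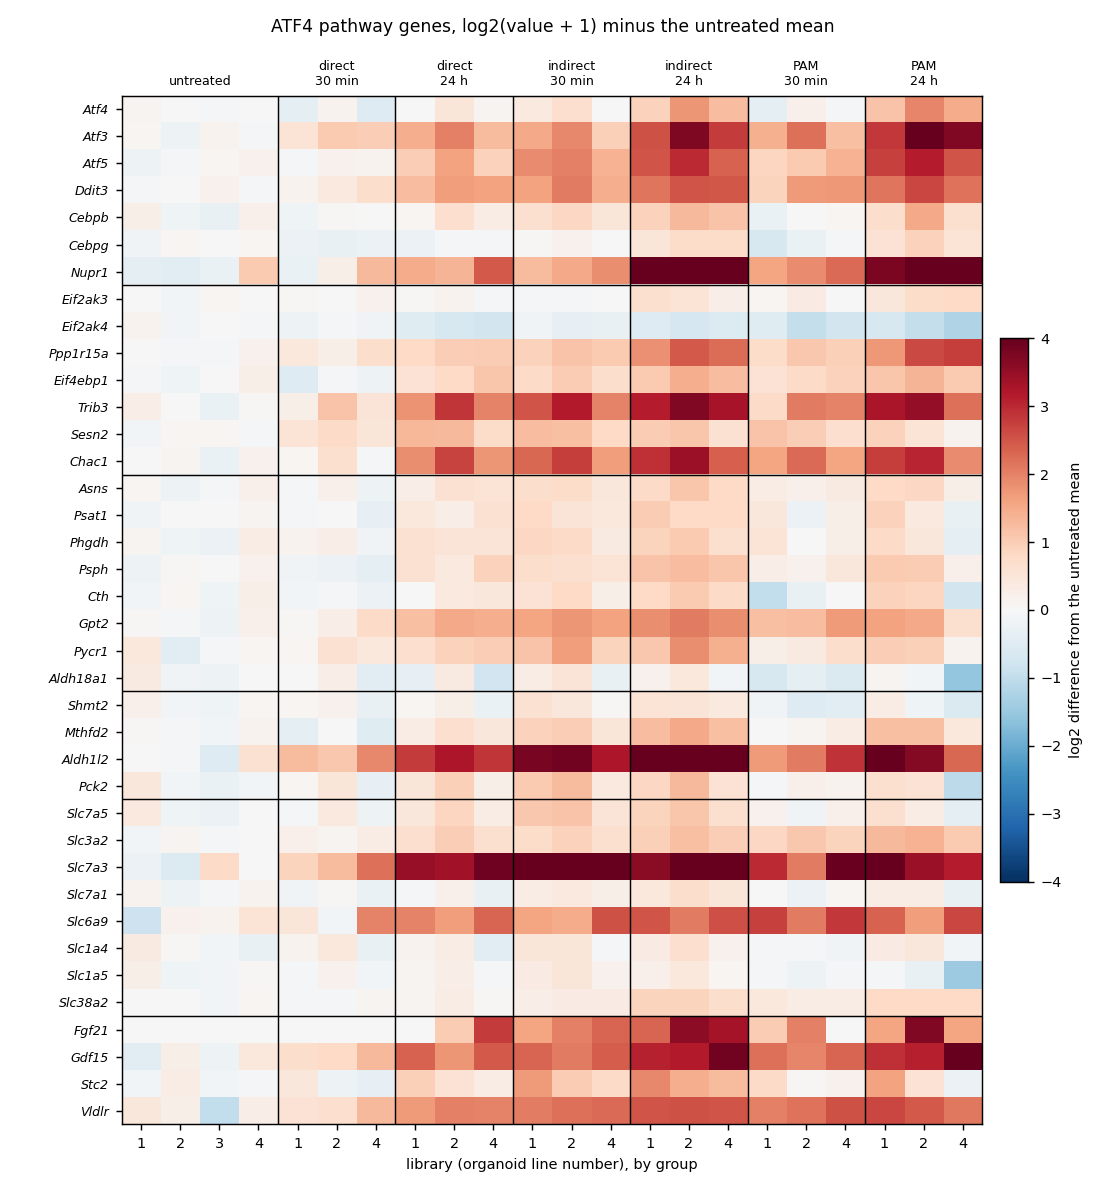
Log2(value + 1) of the 38 genes in each of 22 libraries, minus the mean of the 4 untreated libraries. Rows are genes in 6 blocks by role, columns are libraries by group with the organoid line number underneath, and the colour scale stops at -4 and 4, so that Nupr1, Aldh1l2, Slc7a3, Atf3 and Gdf15 exceed it in places. Red fills most rows with indirect CAP 24 h, where 21 genes were past the threshold, and is scarce after direct CAP 30 min, where none was.

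Of the 7 transcription factors, 3 rose after direct CAP 24 h and with indirect CAP 30 min (Atf3, Atf5, Ddit3), 4 with PAM 30 min (Nupr1 in addition), 6 with indirect CAP 24 h (Atf4 and Cebpb in addition) and 5 with PAM 24 h (these without Cebpb). In this order 1.25%, 0.831%, 4.83%, 6.2% and 6.82% of all genes were higher. With the line as a block the counts were 2, 2, 4, 6 and 5. Atf4 itself (chr15:80255184-80257541, plus strand, positions throughout those of GRCm38) had the highest level of the 38 genes in untreated organoids when divided by exon length, a mean of 1451 per kb. Its values in the untreated libraries of lines 1 to 4 were 3660, 3356, 3260 and 3408. After direct CAP, lines 1, 2 and 4 gave 2636, 3741 and 2373 at 30 min and 3385, 4775 and 3697 at 24 h, and both groups overlapped with the untreated range. With indirect CAP 30 min they gave 4500, 5464 and 3478, and with PAM 30 min 2620, 3903 and 3326, again overlapping. The 24 h groups stood apart, with 6513, 11661 and 8100 for indirect CAP and 7558, 13121 and 9584 for PAM. Their means were 8758 ± 2636 and 10088 ± 2815 (SD, n = 3) against 3421 ± 171 (n = 4) in untreated organoids. The log2 fold change of Atf4 was 1.31 (SE 0.17, adjusted p = 0.000624, limma) with indirect CAP 24 h and 1.52 (SE 0.17, adjusted p = 0.000475) with PAM 24 h. In the 4 other groups it lay between -0.26 and 0.37 and did not pass. Several ATF4 targets thus rose in groups in which the Atf4 mRNA had not passed the threshold.

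Ddit3 (chr10:127290774-127296288, plus strand) encodes CHOP, a factor linked to cell death when stress persists. Its untreated values were 208, 220, 246 and 206 in lines 1 to 4. Direct CAP 30 min gave 241, 291 and 355 in lines 1, 2 and 4, which overlapped with the untreated range, and direct CAP 24 h gave 519, 702 and 675. With indirect CAP the values were 668, 928 and 603 at 30 min and 980, 1255 and 1245 at 24 h, and with PAM 404, 724 and 733 at 30 min and 963, 1402 and 988 at 24 h. Each of these 5 groups lay above all untreated libraries. The log2 fold changes were 1.51 (SE 0.14) after direct CAP 24 h, 1.71 (SE 0.16) and 2.39 (SE 0.12) with indirect CAP 30 min and 24 h, and 1.44 (SE 0.21) and 2.32 (SE 0.16) with PAM 30 min and 24 h. Their adjusted p values (limma) were 0.00157, 0.00227, 3.01e-05, 0.00116 and 0.000272, and the second of them became 0.0112 without untreated line 2. Part of the gene's exons, 10.9%, overlapped other annotated genes, among them Mars on the opposite strand, and the sources used here do not say whether reads were counted by strand.

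Atf3 (chr1:191170296-191218039, minus strand), a stress-induced factor of the same family, was low in untreated organoids, at 101, 83, 106 and 93. It read 139, 196 and 191 after direct CAP 30 min and 260, 388 and 231 after direct CAP 24 h in lines 1, 2 and 4. Indirect CAP gave 274, 368 and 187 at 30 min and 566, 1284 and 675 at 24 h, and PAM gave 257, 443 and 223 at 30 min and 687, 2126 and 1248 at 24 h. No treated library overlapped with the untreated range, and line 2 was the highest of every treated group. The log2 fold change was 0.86 (SE 0.17, adjusted p = 0.1, limma) after direct CAP 30 min, which did not pass, and 1.57 (SE 0.20, adjusted p = 0.00395) after direct CAP 24 h. It was 1.47 (SE 0.22, adjusted p = 0.00743) and 3.04 (SE 0.26, adjusted p = 0.0001) with indirect CAP 30 min and 24 h, and 1.61 (SE 0.24, adjusted p = 0.00118) and 3.67 (SE 0.33, adjusted p = 0.000338) with PAM 30 min and 24 h. With the organoid line as a block the adjusted p was 0.0101 after direct CAP 24 h and 0.0128 with indirect CAP 30 min. The first call was also lost without untreated line 1, 2 or 4 or treated line 1 (adjusted p up to 0.0159), and the second without any 1 library but treated line 4 (up to 0.0244).

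Nupr1 (chr7:126623249-126630861, minus strand), a small chromatin-associated stress protein, made the largest rise of the 37 genes with indirect CAP 24 h and with PAM 24 h. The untreated libraries of lines 1 to 3 held 204, 194 and 219, and that of line 4 held 539. Direct CAP 30 min gave 218, 307 and 650 in lines 1, 2 and 4, direct CAP 24 h 733, 674 and 1449, indirect CAP 30 min 630, 747 and 944 and PAM 30 min 786, 980 and 1263. Line 4 was the highest in each of these groups, and only direct CAP 30 min overlapped with the untreated values. Indirect CAP 24 h gave 4548, 5091 and 6027 and PAM 24 h 3562, 5165 and 16803, so that the mean of PAM 24 h, 8510 ± 7227 (SD, n = 3), was carried by line 4. The log2 fold change was 4.30 (SE 0.33, adjusted p = 7.2e-05, limma) with indirect CAP 24 h, 4.69 (SE 0.55, adjusted p = 0.000563) with PAM 24 h and 1.92 (SE 0.35, adjusted p = 0.00337) with PAM 30 min. The last call was lost without untreated line 2 or 3 or PAM 30 min line 4 (adjusted p up to 0.0164). After direct CAP 24 h the change was 1.77 (SE 0.40, adjusted p = 0.0206), and with the line as a block 1.69 (SE 0.15, adjusted p = 0.00357). With indirect CAP 30 min it was 1.54 (SE 0.34, adjusted p = 0.0197).

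Atf5, which like Atf4 is translated under stress, went from 831 to 1086 in untreated organoids to between 4958 and 7607 with indirect CAP 24 h and between 5542 and 8400 with PAM 24 h. Its log2 fold changes there were 2.62 (SE 0.15) and 2.79 (SE 0.16), against 1.77 (SE 0.15) with indirect CAP 30 min, 1.17 (SE 0.17) after direct CAP 24 h and 1.10 (SE 0.14) with PAM 30 min. The direct CAP 24 h call of Atf5 was lost with the line as a block (adjusted p = 0.0106, limma) and without any 1 library but treated line 4 (up to 0.02). The PAM 30 min call was lost without treated line 4, where the log2 fold change was 0.95. Cebpb, a partner of ATF4, passed the threshold only with indirect CAP 24 h (1.13, SE 0.16). Its 3 libraries also lay above each untreated library (585 to 844) with indirect CAP 30 min (1001 to 1270) and PAM 24 h (1114 to 2030). The exons of Cebpb overlapped Tmem189 on the opposite strand over 20.7% of their bases. Cebpg, another partner, did not pass in any group. Its 3 libraries lay above each untreated library with indirect CAP 24 h and PAM 24 h (log2 fold changes 0.65 and 0.69) and below each after direct CAP 30 min (-0.25).

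**Figure D2:**
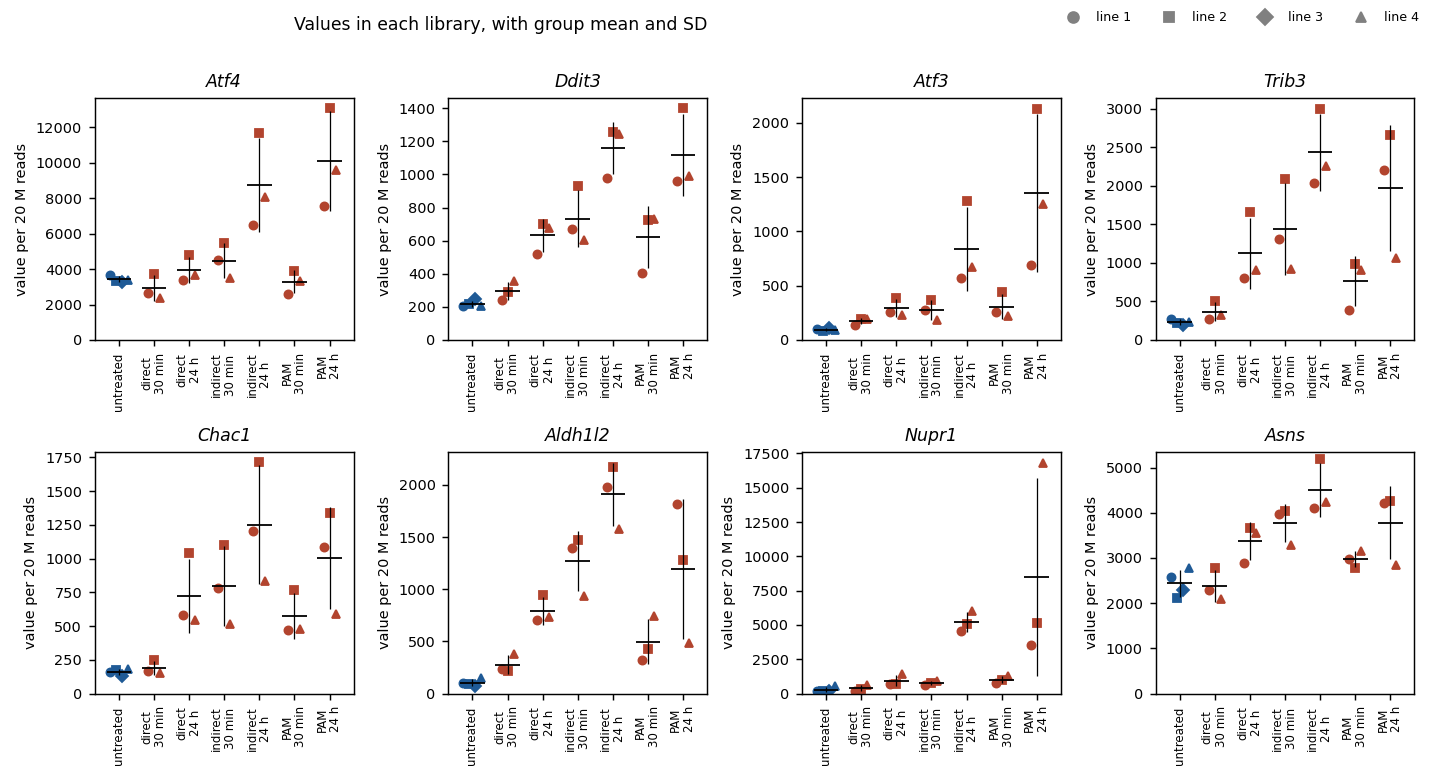
Values per 20 M reads of 8 genes in each library (circles, squares, diamonds and triangles for lines 1 to 4, blue for untreated and red for treated), with the group mean and SD as lines. Ddit3, Trib3 and Chac1 lie above the untreated libraries in 5 treated groups and Aldh1l2 in all 6, whereas Atf4 does so in the 2 groups labelled 24 h of indirect CAP and PAM, and Nupr1 reaches 16803 in 1 library of PAM 24 h.

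A further 7 genes were the kinases and a mixed set of regulators and an enzyme (Ppp1r15a, Eif4ebp1, Trib3, Sesn2 and Chac1). The kinases did not pass the threshold in any group, while these 5 others did in at least 1 group. Eif2ak3 encodes PERK, the kinase of the endoplasmic reticulum. Its untreated values were 842, 783, 890 and 848 in lines 1 to 4, and in lines 1, 2 and 4 it read 859, 839 and 938 after direct CAP 30 min, 862, 917 and 802 after direct CAP 24 h, 812, 801 and 833 with indirect CAP 30 min and 891, 1057 and 825 with PAM 30 min. These groups overlapped with the untreated range, and the 24 h groups did not, with 1308, 1223 and 1009 for indirect CAP and 1144, 1396 and 1470 for PAM. The log2 fold changes of the last groups were 0.48 (SE 0.10, adjusted p = 0.00602, limma) and 0.66 (SE 0.11, adjusted p = 0.00229), which miss the fold limit.

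Eif2ak4 encodes GCN2, the kinase that senses uncharged transfer RNA, and had the lowest log2 fold change of the 37 genes in each group but direct CAP 30 min. It read 725, 613, 651 and 637 in the untreated libraries, 575, 639 and 591 after direct CAP 30 min and 470, 424 and 397 after direct CAP 24 h. Indirect CAP gave 594, 523 and 531 at 30 min and 463, 411 and 448 at 24 h, and PAM gave 472, 338 and 392 at 30 min and 418, 336 and 285 at 24 h. All 3 libraries lay below each untreated library in the 5 groups other than direct CAP 30 min. The log2 fold change was -0.61 (SE 0.11) after direct CAP 24 h, -0.26 (SE 0.09) and -0.57 (SE 0.09) with indirect CAP 30 min and 24 h, and -0.72 (SE 0.13) and -0.94 (SE 0.15) with PAM 30 min and 24 h. Their adjusted p values (limma) were 0.00886, 0.0819, 0.00166, 0.00282 and 0.00167, and none reached the fold limit. Without PAM 24 h line 1 the value was -1.08, which passes it.

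Trib3 (chr2:152337422-152344032, minus strand) encodes a pseudokinase that restrains ATF4 and CHOP. It read 278, 225, 190 and 235 in untreated organoids and 272, 507 and 330 after direct CAP 30 min. In lines 1, 2 and 4 it read 807, 1659 and 904 after direct CAP 24 h, 1306, 2094 and 922 with indirect CAP 30 min and 2041, 3003 and 2265 with indirect CAP 24 h. PAM gave 392, 981 and 915 at 30 min and 2205, 2657 and 1062 at 24 h. Only direct CAP 30 min overlapped with the untreated libraries. The log2 fold changes were 2.21 (SE 0.25, adjusted p = 0.00265, limma) after direct CAP 24 h, 2.56 (SE 0.25, adjusted p = 0.00298) and 3.38 (SE 0.16, adjusted p = 3.01e-05) with indirect CAP 30 min and 24 h, and 1.61 (SE 0.31, adjusted p = 0.0038) and 2.99 (SE 0.30, adjusted p = 0.000378) with PAM 30 min and 24 h. The PAM 30 min call was lost with the line as a block (adjusted p = 0.0212) and without untreated line 2, 3 or 4 or treated line 2 or 4 (up to 0.018). The direct CAP 24 h and indirect CAP 30 min calls were lost without untreated line 2 or 4 or treated line 1 (up to 0.0114 and 0.014).

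Chac1, whose product degrades glutathione, ran from 132 to 180 in untreated organoids, from 546 to 1042 after direct CAP 24 h, from 513 to 1100 and 837 to 1714 with indirect CAP 30 min and 24 h, and from 473 to 769 and 593 to 1336 with PAM 30 min and 24 h. Its log2 fold changes were 2.11 (SE 0.23), 2.25 (SE 0.24), 2.90 (SE 0.23), 1.80 (SE 0.20) and 2.57 (SE 0.27) in that order, all past the threshold. The first was lost without untreated line 2 or treated line 1 (adjusted p up to 0.0122, limma), and the second without untreated line 2 or 4 or treated line 1 (up to 0.014). Ppp1r15a, which encodes GADD34, the phosphatase subunit that removes phosphate from eIF2alpha, read 188 to 223 in untreated organoids and rose with indirect CAP 30 min (log2 fold change 1.04, SE 0.11), indirect CAP 24 h (2.17, SE 0.15) and PAM 24 h (2.37, SE 0.24). The first of these calls was lost without untreated line 2 or 4 or treated line 1 or 2 (adjusted p up to 0.014). The log2 fold change of Ppp1r15a was 0.93 after direct CAP 24 h and 0.92 with PAM 30 min. Eif4ebp1, an inhibitor of cap-dependent translation, rose with indirect CAP 24 h (1.25, SE 0.13) and PAM 24 h (1.18, SE 0.12).

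Sesn2, which restrains mTORC1 when amino acids are short, had another order. It ran from 692 to 778 in untreated organoids and rose after direct CAP 24 h (1242 to 1842, log2 fold change 1.12, SE 0.14, adjusted p = 0.00395, limma) and with indirect CAP 30 min (1297 to 1738, 1.08, SE 0.11, adjusted p = 0.00342). Its log2 fold change was 0.91 with indirect CAP 24 h, 0.93 with PAM 30 min and 0.54 with PAM 24 h. All 3 libraries of each of the 6 treated groups lay above the untreated range, direct CAP 30 min included (1035 to 1243, log2 fold change 0.59). The direct CAP 24 h call of Sesn2 was lost without any 1 untreated library or treated line 1 (adjusted p up to 0.0179), and the indirect CAP 30 min call without untreated line 2 or 4 or treated line 1 or 2 (up to 0.014).

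**Figure D3:**
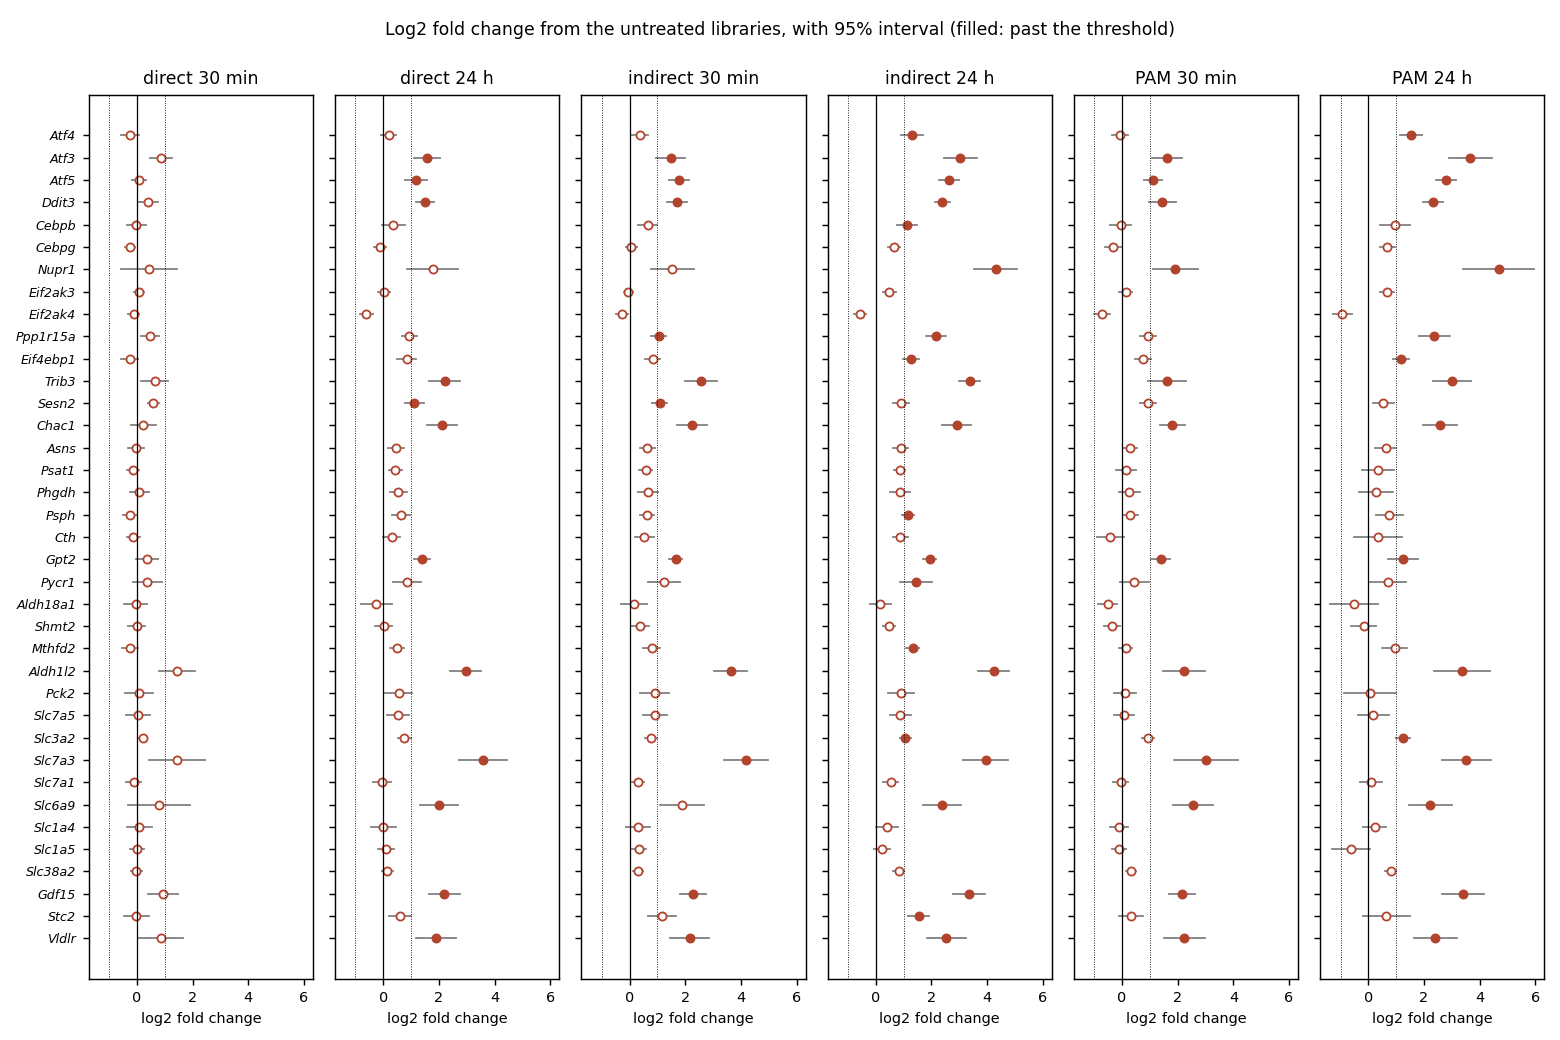
Log2 fold change of the 37 tested genes in each treated group against the untreated libraries (points), with the 95% interval of limma as lines, dotted lines at a log2 fold change of -1 and 1, and filled points for genes past the threshold. Filled points lie to the right in the 5 groups other than direct CAP 30 min, none lies to the left of the dotted line at -1, and direct CAP 30 min has none.

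Of 8 genes for amino acid synthesis, 1 rose after direct CAP 24 h, with indirect CAP 30 min and with each PAM group, and 3 with indirect CAP 24 h, where 6.20% of all genes were higher. Of these genes, Gpt2 rose in 5 groups, Psph and Pycr1 with indirect CAP 24 h only, and Asns, Psat1, Phgdh, Cth and Aldh18a1 did not pass anywhere. Gpt2 encodes the mitochondrial transaminase that makes alanine from pyruvate. It ran from 343 to 448 in untreated organoids, from 899 to 1129 after direct CAP 24 h, from 1166 to 1340 and 1420 to 1641 with indirect CAP 30 min and 24 h, and from 906 to 1285 and 609 to 1196 with PAM 30 min and 24 h. Its log2 fold changes were 1.39 (SE 0.13), 1.65 (SE 0.11), 1.93 (SE 0.11), 1.38 (SE 0.15) and 1.25 (SE 0.23). The last call was lost with the line as a block (adjusted p = 0.0162, limma) and without untreated line 1, 2 or 3 or PAM 24 h line 1 or 2 (up to 0.0135). Asns, the asparagine synthetase that is a classic ATF4 target, had the fourth highest untreated level per exon length among the 38 genes, 891 per kb. Its values ran from 2109 to 2776 in untreated organoids and from 4109 to 5197 with indirect CAP 24 h, a log2 fold change of 0.89 (SE 0.12, adjusted p = 0.000755) that misses the fold limit. In the other groups labelled 24 h it was 0.47 after direct CAP and 0.62 with PAM.

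The serine pathway genes Phgdh, Psat1 and Psph had log2 fold changes of 0.87, 0.86 and 1.16 with indirect CAP 24 h, the last past the threshold (SE 0.10, adjusted p = 0.000112, limma), 0.65, 0.59 and 0.62 with indirect CAP 30 min, 0.54, 0.43 and 0.63 after direct CAP 24 h, and 0.28, 0.34 and 0.75 with PAM 24 h. Of the exonic windows of 100 bases of Phgdh, 28.1% also occur in another annotated gene, Gm7901, and 10.4% of the exon bases of Psph overlap Cct6a on the opposite strand. Cth, which makes cysteine from cystathionine, ranged from 2162 to 2834 in untreated organoids and from 4165 to 5028 with indirect CAP 24 h (0.88), but from 1232 to 2404 with PAM 30 min (-0.43). Pycr1, a proline enzyme with a response element in the window shown above, had a log2 fold change of 1.45 (SE 0.25, adjusted p = 0.00232) with indirect CAP 24 h, which was lost with the line as a block (adjusted p = 0.0196), and of 1.23 (SE 0.25, adjusted p = 0.0157) with indirect CAP 30 min. Aldh18a1, which makes the proline precursor and had the second highest untreated level per exon length (1030 per kb), lay below each untreated library with PAM 30 min (2671 to 3220 against 3605 to 5328, log2 fold change -0.52) and did not pass.

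Of the 4 mitochondrial genes of one-carbon metabolism and of phosphoenolpyruvate synthesis, Aldh1l2 rose in 5 groups and Mthfd2 in 1, and Shmt2 and Pck2 did not pass. Aldh1l2 (chr10:83487450-83534140, minus strand), which makes mitochondrial NADPH from formyl-tetrahydrofolate, was low in untreated organoids, at 99, 94, 70 and 151. In lines 1, 2 and 4 it read 240, 213 and 382 after direct CAP 30 min and 703, 945 and 729 after direct CAP 24 h. Indirect CAP gave 1395, 1469 and 939 at 30 min and 1976, 2173 and 1580 at 24 h, and PAM gave 324, 428 and 744 at 30 min and 1820, 1280 and 489 at 24 h. Every treated library lay above the untreated range, and the spread with PAM 24 h came from a low value in line 4. The log2 fold changes were 1.43 (SE 0.29, adjusted p = 0.1, limma) after direct CAP 30 min, which did not pass, 2.97 (SE 0.25) after direct CAP 24 h, 3.63 (SE 0.26) and 4.23 (SE 0.24) with indirect CAP 30 min and 24 h, and 2.22 (SE 0.33) and 3.38 (SE 0.44) with PAM 30 min and 24 h. Their adjusted p values were 0.00132, 0.00104, 3.35e-05, 0.00118 and 0.000786, and each of these 5 calls was kept when any 1 library was left out. Part of its exons, 14.1%, overlapped D10Wsu102e on the opposite strand. Mthfd2, the mitochondrial folate dehydrogenase, rose with indirect CAP 24 h (1149 to 1348 in untreated, 2863 to 3546 treated, log2 fold change 1.32, SE 0.10, adjusted p = 6.26e-05). Shmt2, the serine hydroxymethyltransferase of the same pathway and the third highest per exon length in untreated organoids (951 per kb), had log2 fold changes between -0.36 and 0.48. Pck2, the mitochondrial PEPCK, had 0.91 with both indirect CAP groups (adjusted p = 0.00888 at 24 h) and 0.06 with PAM 24 h, where lines 1 and 2 read 2587 and 2484 and line 4 read 800.

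Of 8 amino acid transporters, Slc7a3, Slc6a9 and Slc3a2 rose in at least 1 group and Slc7a5, Slc7a1, Slc1a4, Slc1a5 and Slc38a2 did not pass. Slc7a3 (chrX:101079210-101086020, minus strand), a carrier for arginine and lysine, was close to the detection limit in untreated organoids, at 4, 3, 9 and 5, so that counting error is large there. It read 10, 13 and 26 after direct CAP 30 min, 65, 59 and 87 after direct CAP 24 h, 95, 92 and 132 with indirect CAP 30 min, 71, 101 and 101 with indirect CAP 24 h, 46, 24 and 91 with PAM 30 min and 92, 63 and 51 with PAM 24 h. No treated library overlapped with the untreated ones. Slc7a3 passed the filter on low values, a value of 10 in 3 libraries, through the treated libraries alone. A gene kept in this way had to differ, so its filtered fits are given as a description. Its log2 fold changes in them were 3.58 (SE 0.37) after direct CAP 24 h, 4.17 (SE 0.35) and 3.95 (SE 0.35) with indirect CAP 30 min and 24 h, and 3.02 (SE 0.50) and 3.52 (SE 0.38) with PAM 30 min and 24 h. After direct CAP 30 min it was 1.45 (SE 0.44). With no filter on any gene it was past the threshold in the 5 groups other than direct CAP 30 min (adjusted p from 0.000156 to 0.00327, limma). It could not be fitted with the filter when a treated library was left out. Its untreated level per exon length, 1.39 per kb, was the lowest of the 37 genes tested.

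Slc6a9, the glycine carrier GlyT1, read 278, 560, 541 and 718 in untreated organoids. It read 697, 461 and 1976 after direct CAP 30 min, 1985, 1587 and 2499 after direct CAP 24 h, 1491, 1386 and 2933 with indirect CAP 30 min, 2835, 2079 and 2935 with indirect CAP 24 h, 3308, 2112 and 3548 with PAM 30 min and 2532, 1583 and 3152 with PAM 24 h. Line 4 was the highest treated library in all 6 groups, and direct CAP 30 min alone overlapped with the untreated range. Log2 fold changes of 2.00 (SE 0.30), 2.38 (SE 0.29), 2.55 (SE 0.31) and 2.23 (SE 0.34) passed the threshold after direct CAP 24 h, with indirect CAP 24 h, PAM 30 min and PAM 24 h. With indirect CAP 30 min the value was 1.88 (SE 0.35, adjusted p = 0.0124, limma), and 1.92 (SE 0.20, adjusted p = 0.00654) with the line as a block. The direct CAP 24 h call was lost without untreated line 2, 3 or 4 or treated line 1 or 4 (adjusted p up to 0.0243). This gene shares 38.6% of its exon bases with genes on the opposite strand (Ccdc24, B4galt2 and Gm17114), and its values are uncertain for that reason. Slc3a2, the heavy chain that pairs with Slc7a5 and other light chains, rose with indirect CAP 24 h (log2 fold change 1.05, SE 0.09) and PAM 24 h (1.24, SE 0.10), and the first call was lost without treated line 2 (0.98). Its partner Slc7a5 had 0.91 and 0.88 with indirect CAP 30 min and 24 h and 0.18 with PAM 24 h. Slc38a2 read 5780 to 6659 in untreated organoids and 10077 to 11634 with indirect CAP 24 h (0.83), and with PAM 24 h its libraries were close together at 10913, 10884 and 10886 (0.80). Slc1a4 and Slc1a5, carriers of neutral amino acids, and Slc7a1, a carrier of basic ones, lay between -0.61 and 0.53 in all groups.

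Among the secreted factors, Gdf15 (chr8:70629393-70632456, minus strand), a circulating stress cytokine, rose in 5 groups. It read 310, 504, 372 and 570 in untreated organoids. In lines 1, 2 and 4 it read 690, 743 and 1052 after direct CAP 30 min, 2207, 1458 and 2345 after direct CAP 24 h, 2167, 1800 and 2302 with indirect CAP 30 min and 3582, 3818 and 6168 with indirect CAP 24 h. PAM gave 1965, 1638 and 2124 at 30 min and 3206, 3712 and 7790 at 24 h. Each treated library lay above the untreated range and line 4 was the highest of each treated group. The log2 fold changes were 2.20 (SE 0.24, adjusted p = 0.00265, limma) after direct CAP 24 h, 2.28 (SE 0.20, adjusted p = 0.00227) and 3.36 (SE 0.25, adjusted p = 6.18e-05) with indirect CAP 30 min and 24 h, and 2.15 (SE 0.21, adjusted p = 0.000233) and 3.40 (SE 0.33, adjusted p = 0.00036) with PAM 30 min and 24 h. The first call was lost without untreated line 2 or treated line 1 (adjusted p up to 0.0131). Stc2, a secreted glycoprotein, rose with indirect CAP 24 h (391 to 525 in untreated, 1017 to 1598 treated, 1.53, SE 0.17, adjusted p = 0.000292). With indirect CAP 30 min it read 1390, 861 and 717 in lines 1, 2 and 4 (1.16), which did not pass. With PAM 24 h it read 1288, 640 and 362, the last below each untreated library (0.65).

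Fgf21, a hormone whose gene is a known ATF4 target in liver, was listed at 0 in all 4 untreated libraries and after direct CAP 30 min. It was listed at 0, 1 and 6 after direct CAP 24 h, 2, 3 and 4 with indirect CAP 30 min, 4, 11 and 9 with indirect CAP 24 h, 1, 3 and 0 with PAM 30 min and 2, 12 and 2 with PAM 24 h. These values stand for a few reads each and did not pass the filter on low values, so Fgf21 entered only fits with no filter. Vldlr, a lipoprotein receptor, read 705, 611, 261 and 619 in untreated organoids and 775, 822 and 1275 after direct CAP 30 min. It read 1690, 2067 and 2032 after direct CAP 24 h, 2119, 2352 and 2491 with indirect CAP 30 min, 2935, 3021 and 2942 with indirect CAP 24 h, 2084, 2298 and 3003 with PAM 30 min and 3277, 2818 and 2209 with PAM 24 h. No treated library overlapped with the untreated ones. The log2 fold changes of Vldlr past the threshold were 1.90 (SE 0.31), 2.17 (SE 0.31), 2.53 (SE 0.31), 2.24 (SE 0.32) and 2.41 (SE 0.33) in the order of the 5 later groups. Those after direct CAP 24 h and with indirect CAP 30 min were lost without most single libraries, all but untreated line 3 in the first and all but untreated lines 1 and 3 in the second (adjusted p up to 0.0246 and 0.0186, limma).

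Treated groups were compared with each other to ask whether the time on the label or the kind of medium changed the response. The same 3 lines stand on both sides, and libraries of the same line deviated together, so the values with the line as a block are given as well. Between direct CAP 24 h and 30 min, no gene passed the threshold in limma without the block, where 25 of the 37 genes were higher and 1 was lower at an unadjusted p under 0.05 (6.40% and 15.0% of all genes). With the block 11 of the 37 did, all higher at 24 h, and 1.13% of all genes. They were Slc7a3 (log2 difference 2.13, SE 0.30), Chac1 (1.89, SE 0.14), Trib3 (1.57, SE 0.12), Aldh1l2 (1.54, SE 0.21), Nupr1 (1.34, SE 0.16), Gdf15 (1.27, SE 0.15), Ddit3 (1.10, SE 0.14), Eif4ebp1 (1.10, SE 0.13), Atf5 (1.08, SE 0.14), Vldlr (1.04, SE 0.14) and Gpt2 (1.03, SE 0.14), with adjusted p values from 0.000964 to 0.00739. Atf4 differed by 0.45 (SE 0.20, adjusted p = 0.244 without the block and 0.0512 with it). For 22 of the 37 genes each library at 24 h lay above each at 30 min, and 7.33% of all genes did so.

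Between indirect CAP 24 h and 30 min, Nupr1 passed the threshold without the block (log2 difference 2.76, SE 0.17, adjusted p = 0.00669, limma), as did 0.0111% of all genes. The call was lost in each of the 6 fits that left out 1 library (adjusted p up to 0.0646). With the block 4 of the 37 genes passed and 3.46% of all genes. These were Nupr1 (SE 0.07, adjusted p = 1.17e-07), Atf3 (1.56, SE 0.15, adjusted p = 0.000108), Ppp1r15a (1.12, SE 0.10, adjusted p = 8.69e-05) and Gdf15 (1.08, SE 0.11, adjusted p = 0.00019). Atf4 was just under the fold limit (0.95, SE 0.12, adjusted p = 0.000475 with the block). Slc7a3 (-0.22) and Sesn2 (-0.17) had lower means on the log scale at 24 h (SE 0.17 and 0.07 with the block), and neither passed. For 20 of the 37 genes each library at 24 h lay above each at 30 min (12.1% of all genes), and at an unadjusted p under 0.05 without the block 19 were higher and 1 was lower (9.15% and 12.6%). In the joint fit of all 7 groups 2 passed, Nupr1 (adjusted p = 0.00743) and Ppp1r15a (adjusted p = 0.00971), and 0.315% of all genes.

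Between PAM 24 h and 30 min, no gene passed the threshold in limma with or without the block (0.0% of all genes), and 14 of the 37 were higher at an unadjusted p under 0.05, with none lower (12.7% and 14.1% of all genes). When all 7 groups shared 1 estimate of the spread, 8 passed and 4.55% of all genes. They were Nupr1 (log2 difference 2.77, SE 0.50), Atf3 (2.05, SE 0.37), Atf5 (1.69, SE 0.21), Atf4 (1.60, SE 0.24), Ppp1r15a (1.45, SE 0.21), Gdf15 (1.25, SE 0.30), Cebpg (1.02, SE 0.12) and Cebpb (1.02, SE 0.21). For 14 of the 37 genes each library at 24 h lay above each at 30 min (16.2% of all genes), among them these 8, Ddit3 and Trib3.

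PAM and indirect CAP were set against each other at the same label time. No gene passed the threshold at 30 min or at 24 h, with or without the block. At 30 min, PAM was below indirect CAP in every library pair for 19 of the 37 genes (20.0% of all genes) and above for none (5.78%), and 20 genes were lower at an unadjusted p under 0.05 (16.8%). The median log2 difference was -0.41 over the 37 genes and -0.14 over all genes. The largest differences were those of Aldh1l2 (-1.41, 95% interval -2.14 to -0.67 with the block and -2.15 to -0.66 without it, adjusted p = 0.0314 and 0.165, limma), Slc7a3 (-1.15, -1.79 to -0.51 with the block), Cth (-0.96, -1.49 to -0.43) and Trib3 (-0.95, -1.63 to -0.26), while Slc6a9 (0.68, 0.31 to 1.05) and Nupr1 (0.38, 0.21 to 0.55) lay on the other side. At 24 h, PAM was below indirect CAP in every library pair for 7 of the 37 genes (13.6% of all genes), namely Slc1a5, Pycr1, Slc7a5, Gpt2, Shmt2, Slc7a1 and Psph, and above for none (2.28%). At an unadjusted p under 0.05, 6 of the 37 were lower and none was higher (8.55% of all genes were lower). Atf4 was higher with PAM in each of the 3 lines, by 0.21 on the log2 scale (95% interval 0.02 to 0.40 with the block and -0.44 to 0.85 without it, adjusted p = 0.206 with the block, limma). Atf3 was higher in each line as well, by 0.63 (0.31 to 0.95 with the block and -0.47 to 1.73 without it, adjusted p = 0.128 with the block). Ddit3 differed by -0.07 (-0.35 to 0.22 with the block and -0.50 to 0.37 without it) and was higher with PAM in 1 line and lower in 2.

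**Figure D4:**
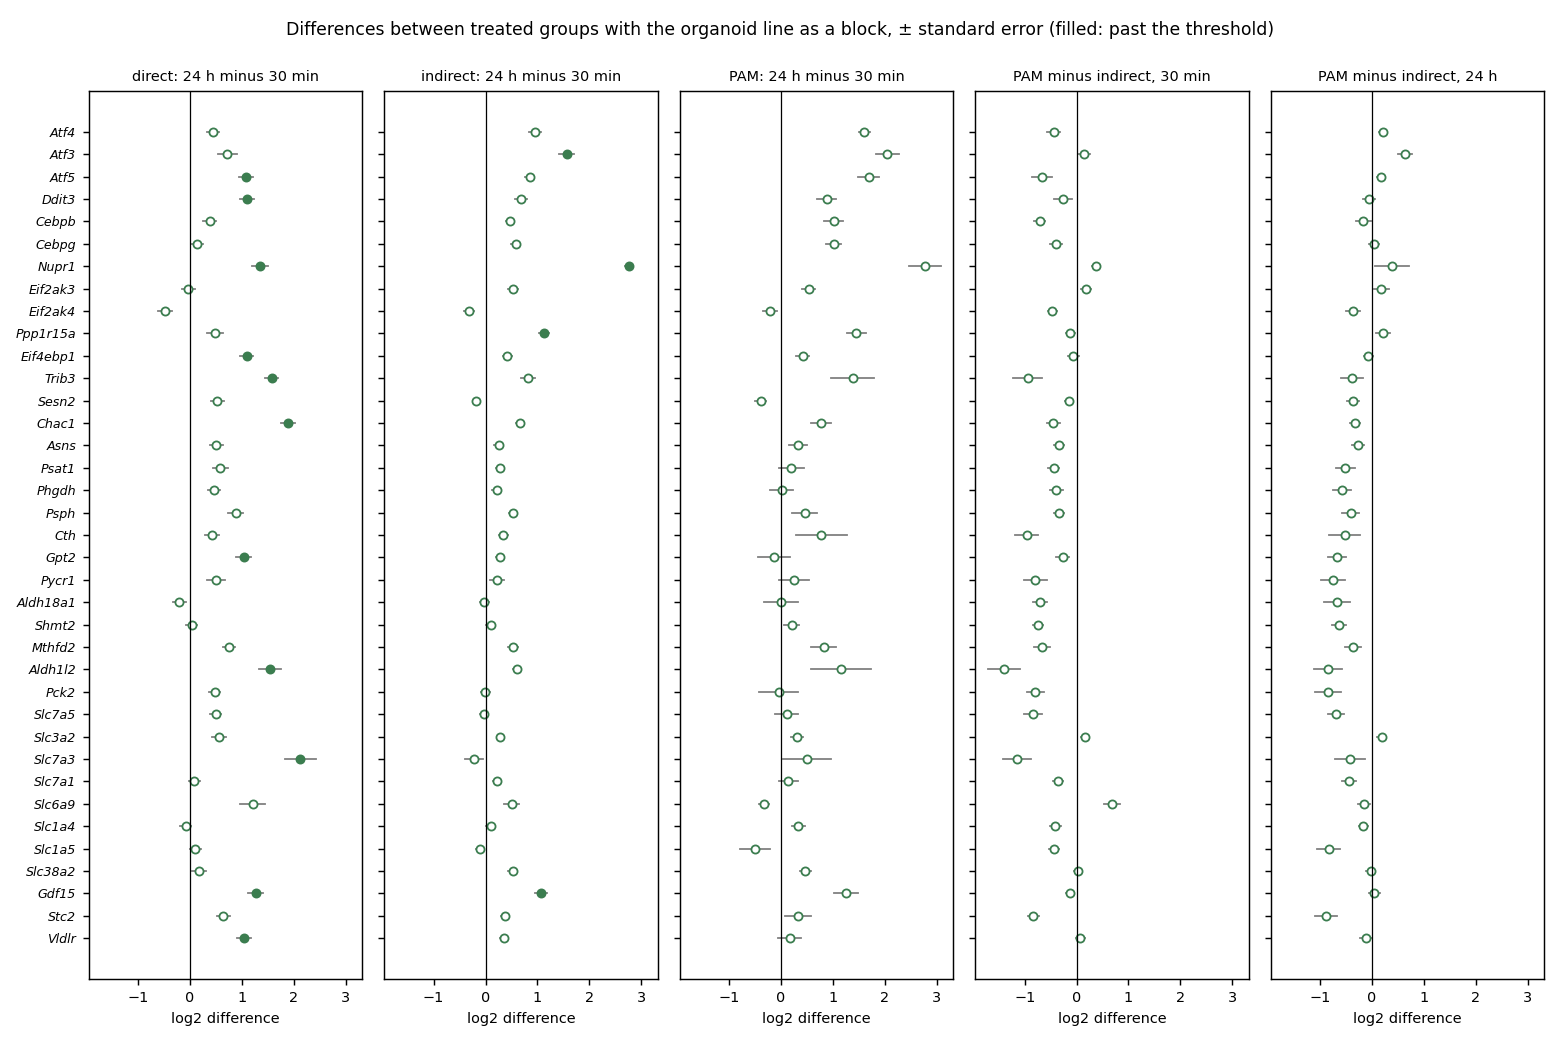
Log2 differences of the 37 genes in 5 comparisons of treated groups (points), with the organoid line as a block and the standard error as lines, filled where past the threshold. Filled points appear for direct CAP 24 h against 30 min (11 genes) and indirect CAP 24 h against 30 min (4 genes). Most points of both comparisons of PAM with indirect CAP lie left of 0, as did most of all genes. At 30 min 7 and at 24 h 9 of the 37 genes lay above 0, against 32.8% and 33.8% of all genes.

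Within the treated groups, values were often ordered by line. Line 2 held the highest value of its group for 23 of the 37 genes after direct CAP 24 h, 23 with indirect CAP 30 min and 27 with indirect CAP 24 h, where it was the highest for 28.7%, 30.8% and 28.9% of all genes. The PAM 24 h library of line 4 was the lowest of its group for 28 of the 37 genes, against 48.3% of all genes, and the highest for 5, Nupr1 and Gdf15 among them. Asns read 2852 there against 4219 and 4270 in lines 1 and 2, Psat1 2107 against 4903 and 3357, and Cth 1446 against 4633 and 4424. Slc7a3 could not be tested without this library. With PAM 24 h, 15 of the 36 other genes were past the threshold with all libraries. In the fit without this library 18 of these 36 were past it. The share of all genes in that fit is not given here.

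Other genes of the pathway were read from 5 further lists. None of 15 genes of the eIF2 and eIF2B complexes and their kinases passed in any group, and the medians of their log2 fold changes lay between -0.09 and 0.10. Of 22 further ATF4 targets, 0, 2, 3, 7, 2 and 6 rose in the order direct CAP 30 min and 24 h, indirect CAP 30 min and 24 h, and PAM 30 min and 24 h. In the first group 0.00564% of all genes passed, and 1.25%, 0.831%, 6.20%, 4.83% and 6.82% of all genes were higher in the others. Jdp2, a partner of Atf3, rose by 3.58 (SE 0.41), 3.68 (SE 0.41), 3.79 (SE 0.40), 3.15 (SE 0.41) and 3.08 (SE 0.47) on the log2 scale in the 5 groups after direct CAP 30 min. Slc7a11, the cystine carrier xCT, rose by 2.29 (SE 0.16), 2.32 (SE 0.15), 2.73 (SE 0.23), 2.55 (SE 0.16) and 3.15 (SE 0.20). Vegfa, a growth factor for vessels, rose by 1.05 (SE 0.18) with indirect CAP 30 min, 2.34 (SE 0.21) with indirect CAP 24 h and 2.33 (SE 0.19) with PAM 24 h, and Klhl24 fell with the last 2 of these, with log2 fold changes of -1.14 (SE 0.13) and -1.70 (SE 0.21).

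Of 18 genes of the XBP1 and ATF6 arms of the unfolded protein response, none passed in the first 3 groups or with PAM 30 min, 2 fell with indirect CAP 24 h, and 1 rose and 2 fell with PAM 24 h. These last counts, 11.1% and 16.7% of the list, lie near the 11.9% and 17.3% of all genes that passed in either direction. Pdia6, a disulphide isomerase of the endoplasmic reticulum, fell with indirect CAP 24 h (log2 fold change -1.14, SE 0.13) and PAM 24 h (-1.23, SE 0.15), and Sdf2l1 fell in both as well (-1.05, SE 0.10, and -1.26, SE 0.15), while Dnajb9, a co-chaperone, rose with PAM 24 h (1.45, SE 0.17). The medians of this list lay between -0.23 and -0.10. Of 17 tested genes for cytosolic one-carbon and other amino acid metabolism, 4 fell with indirect CAP 24 h, 4 with PAM 30 min and 5 with PAM 24 h, where 5.71%, 5.4% and 10.5% of all genes were lower. Oat, the ornithine aminotransferase, fell in these 3 groups with log2 fold changes of -1.83 (SE 0.24), -2.64 (SE 0.28) and -2.71 (SE 0.44), and Shmt1, the cytosolic counterpart of Shmt2, with -1.38 (SE 0.10), -1.46 (SE 0.11) and -2.31 (SE 0.27). Prodh, which degrades proline, fell as well, with -1.11 (SE 0.19), -1.27 (SE 0.20) and -2.18 (SE 0.33), and Got1 alone rose, with PAM 30 min (1.17, SE 0.11). Of 15 intestinal amino acid and peptide transporters none rose, and 1, 2, 3, 2 and 2 fell in the 5 groups after direct CAP 30 min, where 0.917%, 0.477%, 5.71%, 5.4% and 10.5% of all genes were lower. The glutamate carrier Slc1a1 fell with log2 fold changes of -2.26 (SE 0.30) after direct CAP 24 h, -1.88 (SE 0.26) and -3.10 (SE 0.23) with indirect CAP 30 min and 24 h, and -3.16 (SE 0.25) and -4.09 (SE 0.56) with PAM 30 min and 24 h. The neutral amino acid carrier Slc7a8 fell in the last 4 of these groups, with log2 fold changes from -1.40 (SE 0.16) to -2.95 (SE 0.53).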

How the data were processed

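RNA-seq of 22 mouse organoid libraries was analysed from the table the authors deposited. Per the labels, libraries were made with the Ovation SoLo kit (the study's methods name this kit or NEBNext) and read as pairs of 100 bases. The submitters' processing notes name Trimmomatic 0.36, STAR 2.5.3a, HTSeq 0.9.1 and GRCm38.p4, and counting by strand is not given in the sources used here. The deposited values are a score per gene and library, CP20M, which are counts the authors scaled to 20 M and rounded up. The study defines the unit per kilobase, but the values are not divided by length. Raw counts were not used here, so no count test was run.

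Genes were annotated by identifier with GENCODE vM21 on GRCm38 (52489 of 52636, and 38 of 38). After log2(value + 1), limma 3.58.1 with a trend (R 4.3.3) was run on genes with a value of at least 10 in at least 3 of the libraries compared, in 1 fit for each comparison. Fold changes are on the log2(value + 1) scale and understate changes of low genes. Depth was estimated from the spacing of low values with an error of up to 2.31% over 8 simulations. None of 24 replicate pairs was a copy. On simulated data for 3 against 4 libraries (17233 genes tested), 200 of 200 changed genes were found with 0 false calls. With the line as a block (17277 genes tested), 200 of 200 were found with 1 false call. For 3 against 3 libraries there were 0 false calls without the block and 1 with it. How often a change near the fold limit is found at the spread of the deposited libraries was not tested. Figures were drawn with Python 3.11.15 and matplotlib 3.10.9.

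The genes followed and the lists were chosen with earlier results of these data known, so no test over the list is given. Values in every library are given for Atf4, Ddit3, Atf3, Eif2ak3 and Eif2ak4 and for the 4 largest rises past the threshold in each comparison with untreated libraries. In comparisons of treated groups every listed gene past the threshold is named, and in related lists up to 3 rises and 3 falls. Beyond this rule, libraries that stand apart and values of single genes were named after they were seen.

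Replicate numbers name the organoid line, hence the mouse, and pair the libraries. After removal of group means, treated libraries of the same line correlated at a median of 0.56 (0.22 to 0.81, 45 pairs) and those of different lines at -0.33. The untreated libraries of lines 1 and 2 correlated better with the other's treated libraries (medians 0.54 and 0.35) than with their own (0.08 and 0.13), so blocked comparisons with untreated libraries rest on labels in doubt. Alternatives were the line as a block, a joint fit of all 7 groups, quantile normalization, no filter on low values, 10 as pseudocount, an adjusted p under 0.05 without a fold limit, and leaving out each library in turn.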

Additional observations from a re-analysis of the deposited data

Results flagged for a closer look

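The untreated library of line 4 held more Nupr1 than the others (539 against 194 to 219), and the gap was 0.93 of the range of the 4 libraries, past Dixon's 95% limit. The untreated library of line 2 stood out for Stc2 in the same way (525 against 391 to 403, 0.91 of the range). With 37 genes tested so, chance flags about 1 in 20. Nupr1 differed between indirect CAP 24 h and 30 min, by 2.76 on the log2 scale, in the test of that difference. For Cebpg the 3 libraries of direct CAP 30 min lay below every untreated library (mean 1742 ± 32 against 2080 ± 140), whereas those of indirect CAP 24 h (3268 ± 312) and of PAM 24 h (3366 ± 513) lay above, and these differences between treated groups were not tested.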

How the results depend on the processing

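With an adjusted p under 0.05 and no fold limit, 24 of the 37 genes passed after direct CAP 24 h (23 higher, 1 lower), 28 with indirect CAP 30 min (28 and 0), 34 with indirect CAP 24 h (33 and 1), 20 with PAM 30 min (17 and 3), 25 with PAM 24 h (24 and 1) and 6 between the indirect CAP groups. Shares of all genes under this rule are not given here. At an unadjusted p under 0.05 (limma), 32.6%, 38.6%, 52.1%, 50.5%, 55.4% and 21.7% of all genes differed in that order. The replicate block by organoid line gave 11 genes between the direct CAP groups and 4 between the indirect CAP groups. Against untreated libraries, apart from the 6 calls lost and the 2 gained (Nupr1 after direct CAP 24 h, Slc6a9 with indirect CAP 30 min) that stand beside those genes it changed no other call. Quantile normalization gave 0 genes between the indirect CAP groups, and one fit of all 7 groups gave 2, and 8 between the PAM groups. Leaving out 1 library gave 3 to 9 genes after direct CAP 24 h, 5 to 11 with indirect CAP 30 min, 19 to 23 with indirect CAP 24 h, 9 to 12 with PAM 30 min, 14 to 18 with PAM 24 h and 0 to 0 between the indirect CAP groups. These fits hold fewer libraries, and their shares of all genes are not given here. The cause of the changes with the block, quantile normalization and the joint fit was not tested. Of 502 fits of a called gene that left out 1 library, 80 lost the call. The direction turned in 3 fits of values near 0, for Eif2ak3 after direct CAP 24 h (-0.0012 without untreated line 2 and -0.0145 without direct CAP 24 h line 2, range up to 0.082) and for Atf4 with PAM 30 min (0.0761 without PAM 30 min line 1, range down to -0.2113). A pseudocount of 10 and no filter lost none of 74 calls. With no filter 38 genes were fitted, Fgf21 included, in all comparisons but direct CAP 30 min against untreated. Of these 38, 13 passed with indirect CAP 30 min and 22 with indirect CAP 24 h, against 12 and 21 with the filter. Depth limits Fgf21 and Slc7a3, whose untreated values were between 0 and 9 per 20 M reads.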
